A study of Mus musculus with 9 samples.

Results

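A list of genes known as targets of the transcription factor ATF4 was followed in mouse liver: Atf5, Ddit3, Trib3, Asns, Psat1, Phgdh, Chac1, Fgf21, Gdf15 and Sesn2. They were taken as a list of named genes that is set by no threshold on the values, and make up 10 of the 32285 gene identifiers in the table. The series holds 9 liver RNA libraries, 3 from control mice, 3 from mice given Dox (doxycycline hyclate) and 3 from mice given Tc (tetracycline hydrochloride). Each antibiotic was given at 2 mg/mL in sweetened drinking water for 7 days, starting at 4 weeks of age. The study describes the treated mice of this liver experiment as male. The comparison asks how strongly each antibiotic perturbs the liver transcriptome when it is used to switch a transgene.

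By the labels, mice of all 3 groups, controls included, carried the PB CAG-CreERT2 transgene (a tamoxifen-dependent Cre recombinase under a ubiquitous promoter), Rosa26-LSL-tTA and Rosa26-tetO-Venus-ires-mCherry, and all had received tamoxifen. In this Tet-OFF design Dox and Tc also shut off the fluorescent reporter, so the effect of an antibiotic and the loss of reporter expression cannot be told apart. Mice without the transgenes are not among these libraries. Whole liver was ground and sequenced, and fewer cells of a type and less RNA per cell cannot be told apart in such samples. Hepatocyte markers were detected in every library (Alb from 255547.5 to 1408836.3 normalized counts). Alb was lower in every Dox library (255547.5 to 607452.5) than in every control library (956160.4 to 1408836.3), while Tdo2, another hepatocyte marker, was higher.

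The integrated stress response starts when a kinase that senses amino acid shortage, unfolded protein, heme shortage, viral RNA or mitochondrial trouble phosphorylates the translation factor eIF2. General translation then slows while the Atf4 mRNA is translated better, and ATF4 switches on genes for amino acid synthesis and import, tRNA charging and, when stress lasts, cell death. Tetracyclines bind the bacterial ribosome and can also slow the related ribosome of mitochondria, which is a known trigger of this response. Doxycycline and tetracycline share their ring system and differ in the position of a hydroxyl group. Because ATF4 itself is regulated mainly through translation, its targets are often read as a sign of its activity.

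ATF4 binds, together with a C/EBP protein, an element whose core reads TGATGNAA. The letters were searched on both strands in RefSeq promoter windows (build GRCm38.p6) running from 250 bases before to 50 bases after each start site, and all 10 genes had a window. A match stood in 4 of the 10 genes (40.0%), in 13 of 47 other ATF4 response genes with a window (27.7%) and in 1219 of 27025 genes overall (4.51%). The 4 stretches are shown because they are the only members' windows in which the letters were found. Each line runs 5′ to 3′ along the gene's own strand, and capitals mark the match, which lies on the opposite strand in Chac1, Trib3 and Fgf21 and is therefore read there as its reverse complement.
Chac1: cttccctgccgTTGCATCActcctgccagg
Trib3: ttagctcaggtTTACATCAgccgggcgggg
Asns: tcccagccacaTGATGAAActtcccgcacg
Fgf21: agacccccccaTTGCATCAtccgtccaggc

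The Chac1 stretch is chr2:119351038-119351067 on the plus strand, and its match starts at position -193 from the start site. Positions count from the RefSeq start site, whereas exons are those of the GENCODE annotation, whose start can differ. The Trib3 stretch is chr2:152344028-152344057 on the minus strand, starts its match at position 15 and overlaps an annotated exon. The annotated Trib3 gene ends at 152344032, so flanking bases of the stretch reach it and the match does not. The Asns stretch, chr6:7693214-7693243 on the minus strand, starts its match at position -23 and also overlaps an annotated exon. The Fgf21 stretch, chr7:45615611-45615640 on the minus strand, starts its match at position -139. The windows of Atf5, Ddit3, Psat1, Phgdh, Gdf15 and Sesn2 held no match, which says only that these letters are not in these windows. A match is a description and not a measured binding site.

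The deposited values, called normalized counts here, are read counts scaled to a common depth by DESeq2 size factors, and recovered reads ranged from 7426136 to 12183041 per library. In each group, library 3 was fitted as a mixture of libraries 1 and 2. The fitted weights were 58.6% and 40.9% in controls, 61.3% and 34.4% with Dox, and 59.8% and 36.9% with Tc. Where libraries 1 and 2 were over 2-fold apart, the value of library 3 fell between theirs for 496 of 586 genes in controls, 4131 of 4264 with Dox and 962 of 1022 with Tc. The remaining error of these fits was not recorded, and how closely a separate mouse would fit was not tested here. The p-values over all 9 libraries are too small if libraries 3 are not separate mice. Each adjusted p below comes from limma, which fitted log2(normalized count + 1) of the 12100 genes averaging 10 or more normalized counts, and the value without libraries 3 stands beside it where it matters. A gene is called when its fold change is over 2 and its Benjamini-Hochberg adjusted p is under 0.05. Scaling each library to the same total in place of the deposited size factors moved the median Dox change of all genes from 0.00 to 0.17 on the log2 scale, and that of Dox against Tc from -0.02 to 0.16.

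The 8 members tested did not all change in a single direction: 3 log2 changes were above 0 and 5 below, with Dox and also with Tc. With Tc, Ddit3 (0.03) and Sesn2 (0.09) were near 0 and turned sign in some other settings. With Dox, Gdf15 was -0.86 in limma and 0.24 in DESeq2. Of the 10, 8 passed the filter on low values, and Phgdh and Fgf21 did not. With Dox, 1 of the 8 was called, Atf5, which fell, against 5.0% of all 12100 genes called in that comparison. With Tc, 0 of the 8 were called by limma (0.165% of all genes). In the direct comparison, 1 of the 8 was called, Trib3, which was higher with Dox than with Tc (0.215% of all genes called). An unadjusted p under 0.05 was reached by 3 members with Dox, 2 with Tc and 4 between Dox and Tc, beside 29.1%, 11.7% and 21.7% of all genes. Without libraries 3, limma called none of the 8 in any of these comparisons (0.0% of all genes each), and 1, 2 and 1 members had an unadjusted p under 0.05 (8.6%, 1.98% and 3.75% of all genes). DESeq2, run on the reads recovered from the values, called 3 members with Dox (8.71% of all genes), 1 with Tc (1.28%) and 2 between Dox and Tc (4.53%). Without libraries 3, DESeq2 called 1 with Dox (Atf5; 0.882%), 0 with Tc (0.0291%) and 1 between them (Trib3; 0.266%). The groups did not overlap for 2 members with Dox, 4 with Tc and 3 between the antibiotics, beside 33.3%, 30.7% and 24.6% of all genes. All 4 with Tc were below the controls. The median log2 fold change of the 8 genes was -0.83 with Dox, -0.56 with Tc and 0.35 between Dox and Tc, beside medians of 0.00, 0.00 and -0.02 over all genes tested.

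**Figure D1:**
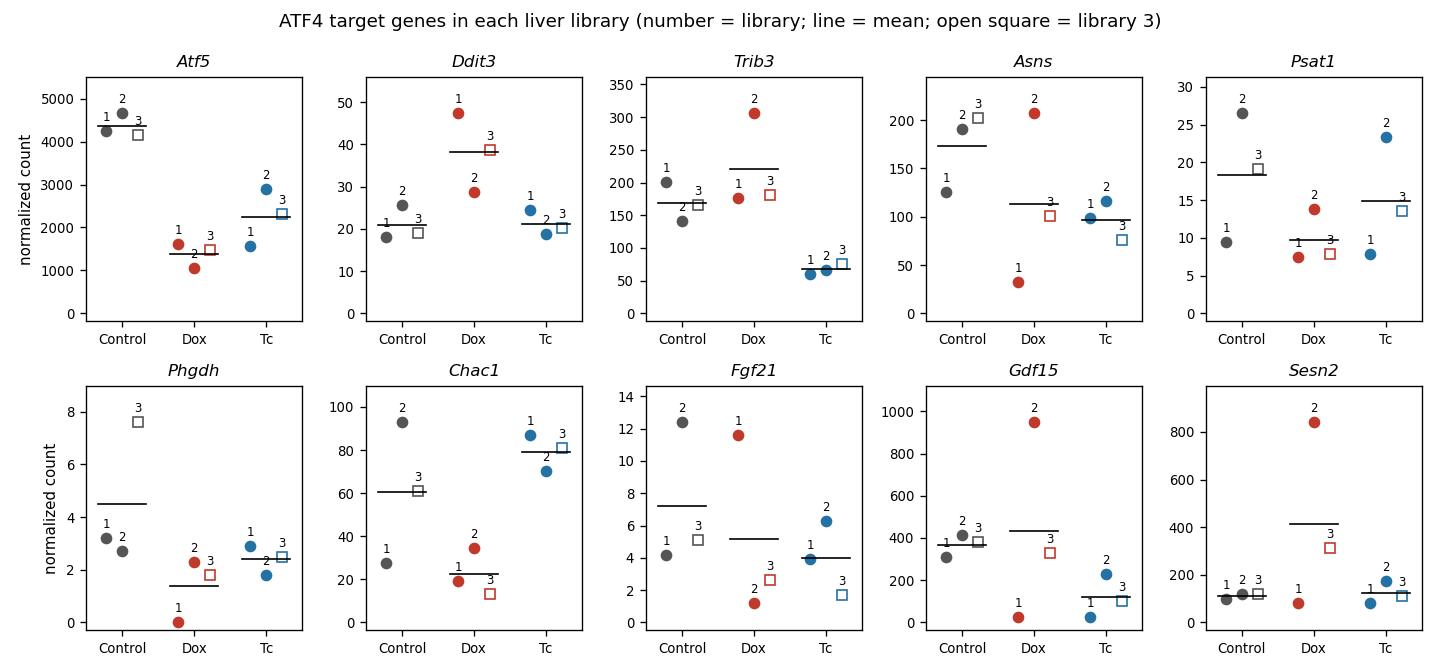
Normalized counts (vertical axis, each panel on its own linear scale) of the 10 genes in the control, Dox and Tc libraries. Each point is a library and carries its number, open squares are libraries 3, and lines are means of 3 libraries. The Atf5 points of both antibiotics lie below every control point, while Gdf15 and Sesn2 are spread widely within the Dox group.

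Atf5 encodes a bZIP transcription factor whose own mRNA is translated better under stress and which has been tied to the mitochondrial unfolded protein response. The gene (ENSMUSG00000038539, chr7:44812256-44816658, minus strand, GRCm38) had 4251.0, 4660.6 and 4152.3 normalized counts in control libraries 1, 2 and 3. It had 1611.1, 1046.8 and 1478.0 with Dox and 1563.4, 2886.6 and 2301.8 with Tc. Every library of either antibiotic was below every control library, and the Dox and Tc groups overlapped.

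The Dox mean of Atf5 was 1378.6 ± 295.0 against 4354.6 ± 269.5 in controls (SD, n = 3). Its log2 fold change with Dox was -1.68 (standard error 0.24, 95% interval -2.24 to -1.12, limma adjusted p = 0.0103), that is 0.312 of the control level. Without libraries 3 the change was -1.78, with adjusted p = 0.559 in limma and 0.0218 in DESeq2. The call was lost without Control replicate 2 (adjusted p = 0.05), without Control replicate 3 (0.0613) and without Dox replicate 3 (0.0505), at log2 changes of -1.63, -1.71 and -1.74. With Tc the log2 fold change was -0.99 (standard error 0.24, adjusted p = 0.185), and without libraries 3 its adjusted p was 1.0. The difference between Dox and Tc was -0.69 (interval -1.24 to -0.13, adjusted p = 0.175), which does not pass the threshold. Exons of Atf5 overlap those of Nup62 and Il4i1 on the opposite strand over 82 bp.

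Ddit3 encodes CHOP, a transcription factor that promotes cell death when stress persists. Ddit3 (ENSMUSG00000025408, chr10:127290774-127296288, plus strand) was low, with 18.0, 25.7 and 19.1 normalized counts in controls. It had 47.4, 28.8 and 38.7 with Dox and 24.4, 18.9 and 20.2 with Tc. Each Dox library was above every control and every Tc library, by a narrow margin in Dox library 2.

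The log2 fold change of Ddit3 with Dox was 0.83 (standard error 0.26, limma adjusted p = 0.0829) and that between Dox and Tc was 0.81 (interval 0.21 to 1.40, adjusted p = 0.163), and neither was called. Without Dox replicate 2 the Dox change was 1.02 and was called (adjusted p = 0.0325). These values rest on 15 to 45 reads per library. A second identifier of the same symbol, ENSMUSG00000116429, lies within the gene over 105 bp of the same strand and was at 0 in every library. Ddit3 exons also overlap those of Mars over 68 bp on the opposite strand.

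Trib3 encodes a pseudokinase that ATF4 and CHOP induce and that inhibits AKT and ATF4 itself. Trib3 (ENSMUSG00000032715, chr2:152337422-152344032, minus strand) had 201.1, 141.6 and 165.3 normalized counts in controls. It had 176.9, 306.0 and 181.2 with Dox and 60.5, 66.5 and 75.8 with Tc. The Tc libraries lay close together and below every library of the other groups, while the Dox and control libraries overlapped.

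Trib3 was 3.147-fold higher with Dox than with Tc on this scale (log2 1.65, standard error 0.24, interval 1.11 to 2.19, limma adjusted p = 0.0498). Without libraries 3 the difference was 1.86, with adjusted p = 0.755 in limma and 0.0303 in DESeq2. Dox and Tc libraries with the same number tended to deviate in the same way, and the adjusted p was 0.102 when that number entered the model as a replicate block. Leaving out any 1 library kept the difference between 1.40 and 1.79, and the call was kept without Dox replicate 1 (0.0108) or Dox replicate 2 (0.00776) and lost without any other single library (adjusted p from 0.0641 to 0.274). The change of Trib3 with Tc against controls was -1.30 (standard error 0.24, limma adjusted p = 0.0898), and with Dox it was 0.35 (limma adjusted p = 0.352). DESeq2 called the Tc change with all libraries (-1.32, adjusted p = 0.00106) and not without libraries 3 (0.901). Without Dox replicate 2, a library that does not enter the means compared, the Tc change of -1.30 was called (adjusted p = 0.00407). Trib3 is a member with a motif match.

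Asns encodes asparagine synthetase, the classic gene induced by amino acid shortage. Asns (ENSMUSG00000029752, chr6:7675169-7693254, minus strand) had 126.0, 191.1 and 202.1 normalized counts in controls. It had 32.6, 207.1 and 100.3 with Dox and 98.6, 116.0 and 75.8 with Tc. All Tc libraries were below all controls, whereas Dox libraries 1 and 2 lay on either side of the control range. The log2 fold change of Asns was -0.93 with Dox (interval -2.22 to 0.35, limma adjusted p = 0.302) and -0.82 with Tc (interval -2.11 to 0.46, adjusted p = 0.64), and Dox and Tc differed by -0.11 (interval -1.40 to 1.17), with the sign turned by some other settings. The Dox change of Asns was -1.55 and called without Dox replicate 2 (adjusted p = 0.0337), and -0.23 without Dox replicate 1 (0.634).

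Psat1 and Phgdh encode enzymes of serine synthesis from a glycolytic intermediate. Psat1 (ENSMUSG00000024640, chr19:15904678-15947337, minus strand) had 9.5, 26.5 and 19.1 normalized counts in controls, 7.4, 13.8 and 7.9 with Dox, and 7.8, 23.4 and 13.5 with Tc. The groups overlapped in every comparison, and its changes were not called (-0.80 on the log2 scale with Dox, limma adjusted p = 0.322, and -0.49 without Control replicate 2). Phgdh (ENSMUSG00000053398, chr3:98313170-98339990, minus strand) was near the detection limit in whole liver of all groups. Phgdh had 3.2, 2.7 and 7.6 normalized counts in controls, 0.0, 2.3 and 1.8 with Dox, and 2.9, 1.8 and 2.5 with Tc, from 24 reads in all. The 0 in Dox library 1 allows up to 3.16 normalized counts (3 reads, counting error only), so a difference was not detectable at this depth.

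Chac1 encodes an enzyme that breaks down glutathione. Chac1 (ENSMUSG00000027313, chr2:119351229-119354381, plus strand) had 27.5, 92.9 and 61.0 normalized counts in controls. It had 19.0, 34.5 and 13.2 with Dox and 86.9, 70.1 and 80.9 with Tc. All Dox libraries were below all Tc libraries, and the wide control group overlapped both.

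The log2 difference of Chac1 between Dox and Tc was -1.89 (standard error 0.46, interval -2.94 to -0.84), which limma did not call (adjusted p = 0.11). DESeq2 called this difference with all libraries (adjusted p = 0.00705) and not without libraries 3 (0.751). The Dox change of Chac1 against controls was -1.35 (limma adjusted p = 0.101, and 0.0269 and 0.669 with DESeq2 with and without libraries 3). In limma, the Dox change was called without Dox replicate 2 (-1.71, adjusted p = 0.0266), and the difference between Dox and Tc was called without Dox replicate 1 (-1.83, 0.0437) or without Dox replicate 2 (-2.25, 0.0355). Trib3 and Chac1 therefore stood in opposite order between the antibiotics, Trib3 higher with Dox and Chac1 with higher values with Tc, although both hold the motif letters.

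Fgf21 and Gdf15 encode hormones secreted under stress that act on metabolism and appetite. Fgf21 (ENSMUSG00000030827, chr7:45613886-45615490, minus strand) was hardly detected, with 4.2, 12.4 and 5.1 normalized counts in controls. It had 11.6, 1.2 and 2.6 with Dox and 3.9, 6.3 and 1.7 with Tc, from 50 reads in all. No test was made, and the groups overlapped.

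Gdf15 (ENSMUSG00000038508, chr8:70629393-70632456, minus strand) had 311.2, 413.2 and 380.1 normalized counts in controls. It had 25.3, 949.0 and 327.3 with Dox and 25.4, 229.3 and 100.2 with Tc. Dox libraries 1 and 2 lay far to either side of the controls, and all Tc libraries were below them. The log2 fold change of Gdf15 was -0.86 with Dox (standard error 1.22, interval -3.64 to 1.92, limma adjusted p = 0.665), and it was 0.61 without Dox replicate 1 and -1.98 without Dox replicate 2. With Tc it was -2.11 (interval -4.89 to 0.67, adjusted p = 0.564), and between Dox and Tc 1.25 (interval -1.54 to 4.03), which was 2.72 and called without Dox replicate 1 (adjusted p = 0.0469).

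Marker sums of Kupffer cells, neutrophils, endothelial cells, stellate cells and lymphocytes, like Gdf15, were lower in library 1 than in library 2 of every group. Those of hepatocytes, erythroid cells and bile duct cells were not. Single markers did not always follow the sum of their list. Of the stellate markers, Dcn (664.4 and 2298.3 in Dox libraries 1 and 2) and Des were higher in Dox library 2. The other stellate markers were lower there, such as Col3a1 (720.2 and 65.6) and Col1a1 (467.5 and 92.0). None of the 7 lymphocyte markers passed the filter on low values. The endothelial sums were 6286.6 and 6404.3 in control libraries 1 and 2, 3093.7 and 3465.9 with Dox, and 4799.5 and 5553.8 with Tc. The summed normalized counts of 8 Kupffer cell markers were 8327.4 and 15756.4 in control libraries 1 and 2, 2292.3 and 7463.2 with Dox, and 4062.3 and 8195.9 with Tc. The summed level of 8 neutrophil markers was 55.0 and 515.8 in controls, 5.3 and 139.2 with Dox, and 15.6 and 125.9 with Tc, and 4 of these (Ngp, Camp, Elane and Mpo) were at 0 in at least 1 library. With Dox 3 of the 8 Kupffer cell markers and 1 of the 5 neutrophil markers tested were called lower, beside 3.86% of all genes. With Tc none was called by limma (0.165% of all genes), and DESeq2 called 1 neutrophil marker (1.28%). The summed erythroid markers were 1480.9 and 5970.8 in control libraries 1 and 2 but 2489.3 and 761.5 with Dox and 2122.0 and 1314.7 with Tc. Those of bile duct cells were 243.5 and 199.9 in controls, 375.9 and 148.4 with Dox and 255.8 and 335.4 with Tc. Of the erythroid markers 3 of 5 tested, and of the endothelial markers 2 of 8, were also called lower with Dox by limma, and none with Tc. DESeq2 called 4 erythroid markers lower with Dox (8.71% of all genes) and 4 with Tc (1.28%). Without libraries 3 it called 0 of them with Tc (0.0291%). The median log2 change of the erythroid markers tested was -1.80 with Dox and -1.57 with Tc. The part of any of these cells in the Gdf15 levels was not tested.

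Sesn2 encodes sestrin 2, which restrains mTORC1 when leucine is scarce, and it is a target of both ATF4 and p53. Sesn2 (ENSMUSG00000028893, chr4:132492032-132510501, minus strand) had 96.3, 117.7 and 118.2 normalized counts in controls. It had 83.2, 840.9 and 311.4 with Dox and 83.0, 173.6 and 112.0 with Tc. Dox library 1 was below every control and Dox library 2 was far above, so the groups overlapped. The log2 fold change with Dox was 1.34 (standard error 0.70, interval -0.25 to 2.93, limma adjusted p = 0.239). It was 0.54 without Dox replicate 2 (adjusted p = 0.466) and 2.20 without Dox replicate 1, where it was called (0.0137). DESeq2 called the Dox change with all libraries (1.89, adjusted p = 0.0262) and not without libraries 3 (0.399), and the Tc change was 0.09. Between Dox and Tc the difference was 1.25 (interval -0.34 to 2.84, limma adjusted p = 0.312), and it was 2.12 and called without Dox replicate 1 (0.0201).

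**Figure D2:**
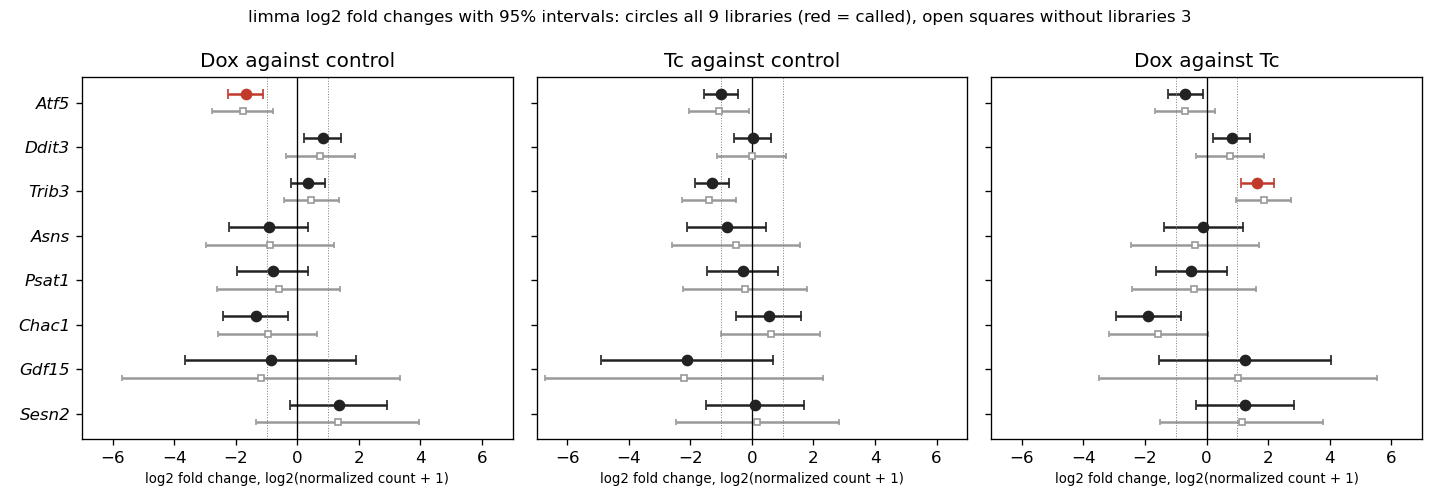
Log2 fold change on the log2(normalized count + 1) scale (horizontal axis) of the 8 genes tested, with Dox against control, Tc against control and Dox against Tc. Circles are limma estimates from all 9 libraries, red where called, open grey squares those without libraries 3, bars are 95% intervals and dotted lines mark a 2-fold change. Atf5 with Dox and Trib3 between Dox and Tc are the called values, and the Gdf15 intervals span over 5 log2 units.

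Per kilobase of exon, the 10 genes differed in level by over 3 orders of magnitude within the control livers. Atf5 was the highest at a mean of 2180 normalized counts per kb (2080 to 2340 over 3 libraries), followed by Gdf15 at 199 (168 to 223). Next came Trib3 at 79.7 (66.6 to 94.6) and Asns at 63.3 (46.1 to 73.9), which overlapped. Chac1 at 36.9 (16.8 to 56.7) overlapped Asns on one side and Sesn2, at 31.9 (27.7 to 34.0), on the other. Ddit3 followed at 12.2 (10.5 to 15.0) and Fgf21 at 7.61 (4.45 to 13.0), again overlapping. Psat1 stood at 4.32 (2.24 to 6.24) and Phgdh at 1.8 (1.07 to 3.07), each overlapping its neighbour in the order. With Dox, Atf5 remained the gene with the highest mean at 692 per kb (525 to 808), but Gdf15 reached from 13.6 to 512. With Tc, Chac1 at 48.4 (42.8 to 53.1) lay above Trib3 at 31.8 (28.5 to 35.7) with no overlap.

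**Figure D3:**
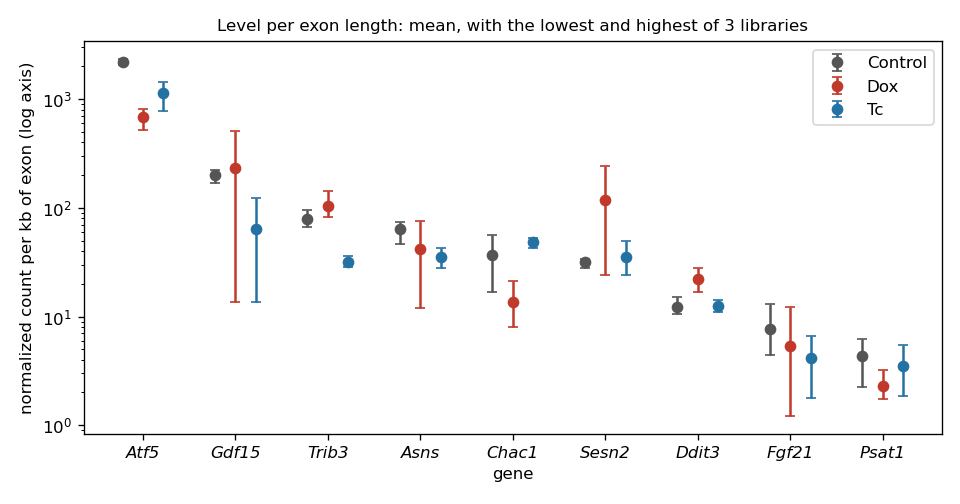
Normalized counts per kilobase of exon (log axis) for 9 of the 10 genes in control, Dox and Tc livers, without Phgdh, which was at 0 in 1 library. Points are means of 3 libraries and bars reach from the lowest to the highest library. Atf5 is about an order of magnitude above the next gene in controls, and the Gdf15 and Sesn2 bars are widest with Dox.

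Members also differed between libraries of 1 group. Between libraries 1 and 2 of a group, 2 of 8 members differed over 2-fold in controls (Psat1 and Chac1), beside 4.84% of all genes. With Dox it was 3 of 8 (Asns, Gdf15 and Sesn2), beside 35.2% of all genes, and with Tc 3 of 8 (Psat1, Gdf15 and Sesn2), beside 8.45%. In Dox library 1, 3 members were over 2-fold below every control library (Atf5, Asns and Gdf15) and 0 were above, while 8.06% of all genes were below and 2.58% above. In Dox library 2, Gdf15 and Sesn2 were over 2-fold above every control and Atf5 below (8.9% and 13.5% of all genes). In Tc library 1, 0 members were above and 3 below (Atf5, Trib3 and Gdf15; 1.87% and 4.7% of all genes), and in Tc library 2, 0 were above and Trib3 was below (1.13% and 1.36%). Atf5 was thus the only member that Dox libraries 1 and 2 both placed over 2-fold outside the controls in the same direction. Trib3 was the only such member for Tc libraries 1 and 2.

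Among the 28 pairs of tested members, the Pearson correlation of log2 values over the 9 libraries ran from -0.66 to 0.82 with a median of 0.24, and 11 pairs were below 0. The libraries share groups, and libraries 3 may not be independent, so these values only describe the table. Asns and Gdf15 had the highest value (0.82, and 0.84 over the 6 libraries 1 and 2). The genes outside the list whose pattern was most like the mean of the members' centred values were Rab31 and Arrb1 (each r = 0.989 over 9 libraries), Myom3 (0.981), Serpinb6a (0.98) and Lzts1 (0.98). Arrb1, a beta-arrestin, had 266.7, 338.8 and 293.7 normalized counts in controls, 148.5, 384.2 and 219.1 with Dox, and 156.2, 252.7 and 205.5 with Tc. Like the members' mean, it was lowest in library 1 and highest in library 2 of each group.

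Atf4 itself had 548.3, 486.6 and 535.2 normalized counts in controls, 639.2, 1425.2 and 897.4 with Dox, and 625.9, 517.1 and 604.7 with Tc. Every Dox library was above every control library and every Tc library, by a narrow margin in Dox library 1. The log2 fold change with Dox was 0.84 (standard error 0.26, limma adjusted p = 0.0747; without libraries 3, 0.578) and was not called. It was 1.11 and called without Dox replicate 1 (adjusted p = 0.0122), and 0.53 without Dox replicate 2 (0.0464), under the 2-fold limit. With Tc it was 0.15 (interval -0.43 to 0.73, adjusted p = 0.876). Dox library 2 had the highest Atf4 and the lowest Atf5 value of the 9 libraries.

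Beyond the 10 genes, 61 other genes of the response were listed and 56 of them tested. With Dox, limma called 5 raised and 1 lowered (1.14% and 3.86% of all genes were raised and lowered). An unadjusted p under 0.05 was reached by 21 (29.1% of all genes). DESeq2 called 8 raised and 1 lowered (8.71% of all genes called in either direction). With Tc 0 were called by limma (0.165% of all genes), 7 passed an unadjusted p of 0.05 (11.7%) and 1 was called by DESeq2 (1.28%). Between Dox and Tc 0 were called by limma (0.215%), 15 had an unadjusted p under 0.05 (21.7%) and 7 were called by DESeq2 (4.53%). The medians of the 56 were 0.16, 0.01 and 0.14 on the log2 scale. Scaling to the same total changed the directions over all genes from 138 raised and 467 lowered with Dox to 245 and 326. Without libraries 3 limma called none of the 56, and DESeq2 called Atf3 with Dox and between Dox and Tc (0.882% and 0.266% of all genes).

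Atf3, a stress-induced repressor of the same bZIP family, had 6.4, 8.8 and 8.9 normalized counts in controls, 20.0, 270.3 and 122.3 with Dox, and 6.8, 9.0 and 7.6 with Tc. Both Dox libraries 1 and 2 were above every control, library 2 by far the more. Its log2 fold change with Dox was 3.31 (standard error 0.78, limma adjusted p = 0.038), without libraries 3 limma gave an adjusted p of 0.573 and DESeq2 of 0.0199, and without Dox replicate 2 the change was 2.51 (limma adjusted p = 0.0283). The limma call was lost without any single control or Tc library and without Dox replicate 3 (adjusted p from 0.0563 to 0.13). The Atf3 window holds the searched letters too.

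Impact encodes an inhibitor of the amino acid sensor GCN2. It had 56.1, 87.6 and 63.6 normalized counts in controls, 142.2, 279.5 and 205.9 with Dox and 84.0, 80.0 and 75.0 with Tc, with no overlap between Dox and the other groups. Its Dox change was 1.56 (standard error 0.26, limma adjusted p = 0.0148; 0.559 without libraries 3), and the call was lost without Control replicate 1, Control replicate 3 or Dox replicate 3 (0.0518, 0.0723 and 0.0672). The eIF2 kinases showed no call in any comparison, and PERK (Eif2ak3) for example had 221.9 ± 16.6 in controls, 263.3 ± 33.8 with Dox and 266.5 ± 26.7 with Tc (SD, n = 3). It was chosen after its values were seen.

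Mthfd1l, a mitochondrial folate enzyme of one-carbon metabolism, was close in all libraries of a group. It had 15.9, 23.0 and 22.9 normalized counts in controls, 57.9, 90.9 and 63.3 with Dox, and 54.7, 66.5 and 55.6 with Tc. Every library of either antibiotic was above every control. The log2 fold change was 1.72 with Dox (standard error 0.24, limma adjusted p = 0.00937; 0.559 without libraries 3, and 0.0504 without Control replicate 3) and 1.49 with Tc (interval 0.94 to 2.03, adjusted p = 0.0695). The difference between the antibiotics was 0.24 (interval -0.31 to 0.78).

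Aldh18a1, the enzyme that opens proline synthesis, had 30.7, 40.7 and 39.4 normalized counts in controls, 19.0, 13.8 and 15.0 with Dox and 15.6, 29.7 and 23.6 with Tc. It fell by 1.17 on the log2 scale with Dox (limma adjusted p = 0.0427; 0.578 without libraries 3), and the call was lost without any single control library, Dox replicate 3 or Tc replicate 3 (from 0.0804 to 0.148). Slc7a2, a transporter of arginine and lysine, had 9247.3, 3835.1 and 6618.8 in controls, 16932.0, 39711.9 and 23962.7 with Dox, and 13720.9, 5900.0 and 10067.9 with Tc. It rose by 2.03 with Dox (adjusted p = 0.032; 0.565 without libraries 3), lost without any single control library, Dox replicate 3 or Tc replicate 3 (from 0.0544 to 0.111).

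Sqstm1, the autophagy receptor p62, had 2581.7, 2351.5 and 2404.2 normalized counts in controls, 3633.8, 7336.6 and 4847.6 with Dox, and 2666.8, 2107.0 and 2723.7 with Tc. Its Dox change was 1.05 (limma adjusted p = 0.0363; 0.572 without libraries 3), and it was 0.78 without Dox replicate 2, under the 2-fold limit. Its call was also lost without any single control library, Dox replicate 3, Tc replicate 1 or Tc replicate 3 (from 0.0541 to 0.13). The 13 genes for tRNA synthetases and tRNA export, a core output of ATF4, had none called in any comparison by limma or DESeq2. An unadjusted p under 0.05 was reached by 2, 2 and 3 of them (29.1%, 11.7% and 21.7% of all genes), and their medians were -0.08, -0.08 and 0.05. The 2 of them with the smallest p with Dox were Xpot (-0.41, adjusted p = 0.118) and Iars (0.37, adjusted p = 0.161).

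**Figure D4:**
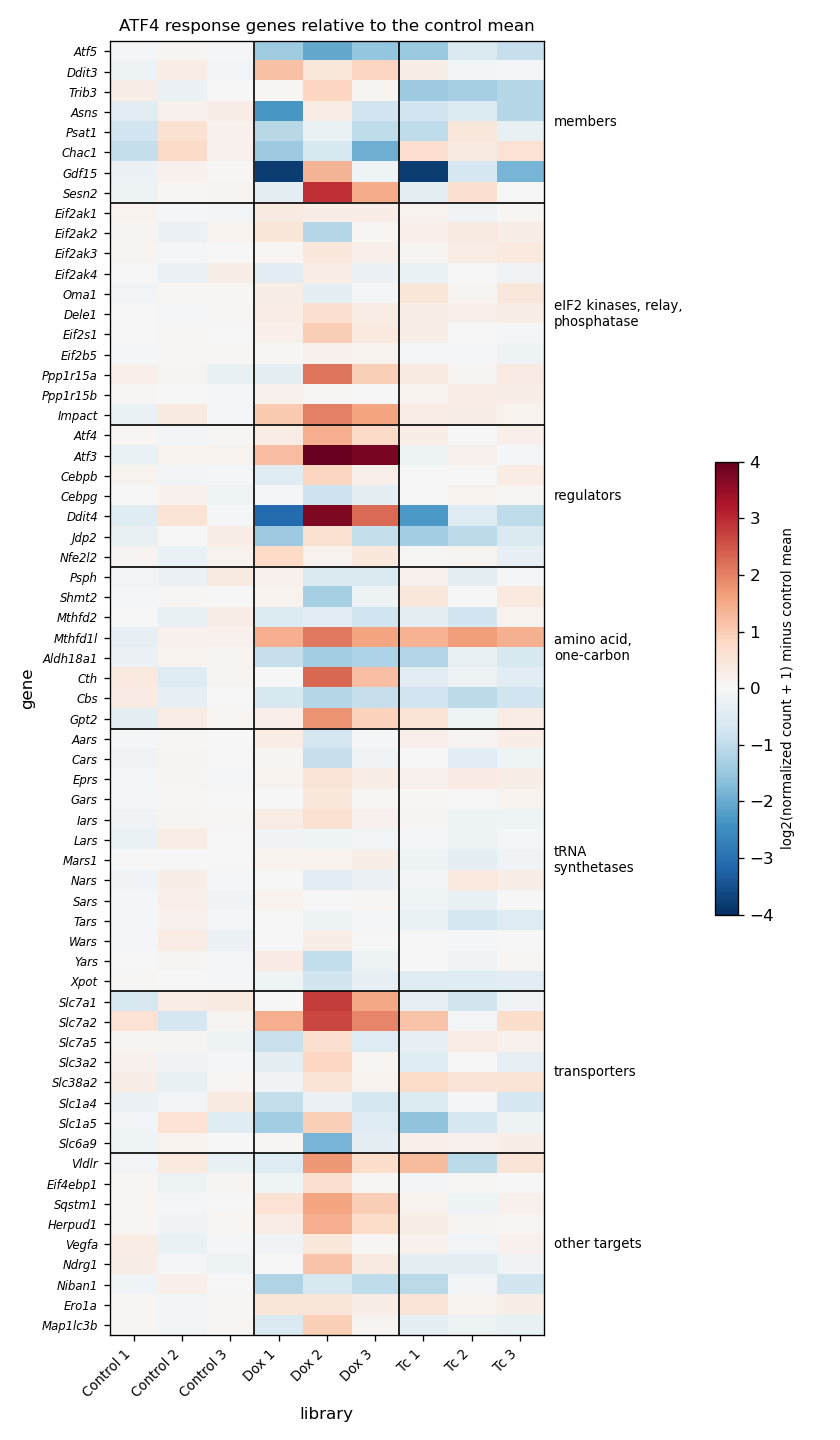
Each gene tested (vertical axis), the 8 members first and then 56 other response genes by role, in each of the 9 libraries (horizontal axis). Colour gives log2(normalized count + 1) minus the mean of the 3 control libraries, red above and blue below, with values past 4 or -4 drawn at the end of the scale. Dox library 2 holds the most red, tRNA synthetases are pale throughout, and Mthfd1l is red in every Dox and Tc library.

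Dox library 2 held most of the high values. In it, 13 of the 56 genes were over 2-fold above every control library and 3 below, beside 8.9% and 13.5% of all genes. In Dox library 1 it was 2 above (Atf3 and Mthfd1l) and 3 below (2.58% and 8.06% of all genes). In Tc library 1 it was 1 above and 3 below (1.87% and 4.7%), and in Tc library 2 it was 1 above (Mthfd1l) and 0 below (1.13% and 1.36%). Ddit4, an inhibitor of mTORC1 chosen after its values were seen, had 311.2, 641.4 and 419.6 normalized counts in controls and 49.5, 5791.8 and 2130.0 with Dox. Dox libraries 1 and 2 thus lay on opposite sides of the controls for Ddit4, as for Sesn2 and Gdf15. Dox library 3 was above every control for Ddit4 and Sesn2 (311.4) and within the control range for Gdf15 (327.3).

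Related stress programs were also described by counts. For these lists and those below, the shares of all genes with Dox, with Tc and between them were as follows. Limma called 5.0%, 0.165% and 0.215%, an unadjusted p under 0.05 was reached by 29.1%, 11.7% and 21.7%, and DESeq2 called 8.71%, 1.28% and 4.53%. Of 14 genes of the endoplasmic reticulum unfolded protein response, 0 were called by limma in any comparison (3, 1 and 7 at an unadjusted p under 0.05), with medians of -0.46 with Dox, 0.26 with Tc and -0.56 between them, and DESeq2 called 4 lower with Dox than with Tc. Sdf2l1, a chaperone partner of that response, had 238.2, 296.4 and 249.2 normalized counts in controls, 206.4, 94.3 and 174.2 with Dox, and 323.2, 622.3 and 501.1 with Tc. Its groups did not overlap in any comparison, and the difference between Dox and Tc was -1.62 (interval -2.36 to -0.89, limma adjusted p = 0.0841). The other named gene of that list, Xbp1, had a change of -0.33 with Dox (adjusted p = 0.138).

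Of 12 mitochondrial chaperones and proteases, 0 were called by limma in any comparison (4, 4 and 1 at an unadjusted p under 0.05; DESeq2 called 0, 1 and 1). Hspa9, the mitochondrial HSP70, had 4118.7, 4285.4 and 3948.9 normalized counts in controls, 6412.7, 6327.8 and 5833.0 with Dox, and 5753.6, 4745.4 and 5518.2 with Tc. Its values with either antibiotic were above every control, and its Dox change of 0.59 (interval 0.27 to 0.90, limma adjusted p = 0.0374; 0.578 without libraries 3) was under the 2-fold limit. Afg3l2 had a Dox change of 0.45 (adjusted p = 0.134).

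Receptors of the secreted members were read as well. Klb, the co-receptor of FGF21, had 998.2, 753.8 and 854.4 normalized counts in controls, 612.8, 525.7 and 513.8 with Dox, and 625.0, 700.5 and 585.3 with Tc. Its Dox change was -0.65 (limma adjusted p = 0.0323; 0.573 without libraries 3), under the 2-fold limit. Gfral, the GDF15 receptor of the hindbrain, and Fgf15 were at 0 in every library. Of the 4 listed genes tested, 0 were called by limma (3, 1 and 1 had an unadjusted p under 0.05), 1 was lower with Dox in DESeq2, and Fgf1 had a Dox change of -1.39 (limma adjusted p = 0.0641; -1.78 and 0.0139, a call, without Dox replicate 1).

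Fgf21 is also a target of the fasting receptor PPAR-alpha, and Sesn2 and Gdf15 are targets of p53. Of 12 PPAR-alpha targets, Acot1 was raised with Dox (1.73, limma adjusted p = 0.0114). Without libraries 3 its adjusted p was 0.559 in limma and 0.0383 in DESeq2. Ehhadh was lowered with Dox (-1.93, limma adjusted p = 0.0436, and 0.573 without libraries 3). By DESeq2, 4 of the list were raised and 1 lowered with Dox, 1 was lowered with Tc, and 3 were higher with Dox than with Tc. The Acot1 call in limma was lost without Control replicate 2, Control replicate 3 or Dox replicate 3 (0.0522, 0.0613 and 0.0588), and that of Ehhadh without any single control library, Dox replicate 3 or Tc replicate 3 (from 0.05 to 0.147). Of 10 p53 targets tested, 0 were called by limma (3, 1 and 2 had an unadjusted p under 0.05), whereas in DESeq2 2 were higher with Dox and 3 higher with Dox than with Tc. Trp53inp1 had 613.9, 462.7 and 525.1 normalized counts in controls, 569.7, 6859.2 and 2727.3 with Dox, and 483.4, 968.5 and 542.4 with Tc. Its Dox change was 2.05 (limma adjusted p = 0.119; 3.03 and 0.00684, a call, without Dox replicate 1, and 1.23 without Dox replicate 2), and that of Phlda3 was -1.31 (adjusted p = 0.0909). The p53 targets varied in pattern, and the following were chosen after their values were seen. Mdm2 had 276.9 and 310.6 in Dox libraries 1 and 2, beside 235.0 and 263.6 in those of controls. Cdkn1a had 12.6 and 883.4, beside 74.1 and 299.9, and Sesn1 had 148.5 and 1077.8, beside 157.7 and 184.0. Ccng1 went the other way, with 366.4 and 153.0, beside 287.9 and 321.1. The part of p53 in the Sesn2 and Gdf15 values was not tested. In Trp53inp1, as in Sesn2, the high value belonged to Dox library 2.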

How the data were processed

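Per the labels and the study's methods, the authors trimmed single-end reads of directional liver libraries with cutadapt, aligned them to mm10 with STAR 2.7.11ac, counted uniquely mapped reads per gene with HTSeq 2.0.5 and normalized with DESeq2 1.42.0. The deposited signal is in normalized counts, of which 100% were whole multiples of 1 read (within 0.02 reads). Log2(value + 1) was tested with limma 3.58.1 (R 4.3.3, trend, 1 model of 9 libraries, Benjamini-Hochberg over 12100 genes). Alternatives were DESeq2 1.42.0 and edgeR 4.0.16 on recovered reads, other pseudocounts (0.1 and 8), filters and scaling, fits of 2 groups, a replicate block, and libraries left out. The scripts were tested on simulated data. Dox and Tc libraries of the same number deviated together (r = 0.29, 0.32 and 0.18), and controls did not pair with either (-0.08 to 0.06). The numbers used for this pairing are those of the sample labels.

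The 10 members and all lists were chosen with earlier results of these data known. Named beyond the members were Atf4, every called gene of a list or, with none called, the 2 of smallest p with Dox, and the 5 genes most like the members. Symbols came from a reference table (32158 of 32285 identifiers). Exon lengths and coordinates are from GENCODE on GRCm38, a release near the authors' own. Promoter sequences are RefSeq's. The study describes the samples of a group as independent; whether libraries 3 are separate mice could not be settled here, so p-values measure only the spread between these libraries.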

Additional observations from a re-analysis of the deposited data

Results flagged for a closer look

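In the direct test of Dox against Tc, Trib3 had a log2 difference of 1.65 that just passed the threshold (limma adjusted p = 0.0498, all 3 Dox libraries above all 3 Tc libraries). The call was lost with the replicate block (adjusted p = 0.102), in limma without libraries 3 (0.755) and without any single library other than Dox replicate 1 or Dox replicate 2 (0.0641 to 0.274). Its cause was not tested.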

How the results depend on the processing

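Adjusted p-values over all 9 libraries are too small if libraries 3, which could be fitted as mixtures of libraries 1 and 2, are not separate mice, and with 2 libraries a group limma called none of these genes. With Dox, the count of called members (1 of 8) was 3 with DESeq2, 0 without libraries 3, 0 with a replicate block and only the 2 groups in the fit, and 0 to 4 with single libraries left out. The count among the 56 other response genes with Dox (6) was 9 with DESeq2, 1 with DESeq2 without libraries 3, 1 with only the 2 groups in the fit, 3 with the replicate block, 0 with the block and 2 groups, 0 without libraries 3, and 0 to 15 with single libraries left out (15 without Dox replicate 1). With Tc, the members' count (0) was 1 with DESeq2, 1 with 2 groups, 1 with the block and 2 groups and 0 to 1 with libraries left out, and that of the 56 (0) was 1, 1, 2 and 0 to 1 in the same order. Between Dox and Tc, the members' count (1) was 2 with DESeq2, 0 with edgeR, with a mean of at least 50, with no filter, with pseudocounts of 0.1 and 8, with the same total per library, with 2 groups, with the replicate block, with the block and 2 groups and without libraries 3, and 0 to 4 with libraries left out. That of the 56 (0) was 7 with DESeq2, 1 with DESeq2 without libraries 3 and 0 to 12 with libraries left out. When the 3 groups were fitted together, adding the replicate block ended the Trib3 call and no other call of a member. With the block and only 2 groups, the Atf5 call with Dox was lost as well. Signs turned, in values called under none of these settings, for Gdf15 with Dox (0.43 with DESeq2 without libraries 3, 0.24 with DESeq2, 0.22 with edgeR; -1.98 to 0.61 with libraries left out), Ddit3 with Tc (-0.02, with edgeR -0.01, without libraries 3 0.00; -0.08 to 0.18), Psat1 with Tc (-0.69 to 0.06), Sesn2 with Tc (-0.19 to 0.34) and Asns between Dox and Tc (0.16, 0.23, 0.22, and 0.06 with the same total; -0.72 to 0.59). The causes were not tested. Depth limits Phgdh and Fgf21, with 24 and 50 reads in all.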
